A study of Homo sapiens with 18 samples.

Results

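The HOX genes and the even-skipped homeobox genes EVX1 and EVX2 were examined in HEK293 cells, an established human embryonic kidney line. Members were all protein-coding genes named HOXA, HOXB, HOXC or HOXD with a number, plus EVX1 and EVX2. This gave 41 genes of the 34255 genes with a transcript in the deposited table, and 39 of them were among the 15519 genes that passed the filter on low counts. HOXB1 had 0 counts in all 18 libraries, and HOXC12 had at most 9 counts in any library. These 2 members were not tested.

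The 3 lines were wildtype HEK293 cells, a line lacking β-arrestin1 and β-arrestin2 (β-arrestin1/2 KO) and a line lacking Gαs (Gαs KO), the knockouts having been made with CRISPR–Cas9. Whether each knockout line is a single clone is not given in the sources used here. All 18 libraries, wildtype included, came from cells transfected with a β2-adrenergic receptor (β2AR) plasmid and serum starved overnight. At 48 h after transfection each line was given vehicle (basal) or 1 µM isoproterenol, a β-adrenergic agonist, for 1 h. Each of the 6 groups had 3 libraries labelled as biological replicates.

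HOX genes encode homeodomain transcription factors that specify position along the body axis. They lie in 4 clusters, and a gene's number, its paralog group, follows its place in the cluster: low numbers act towards the head, high numbers towards the tail. HOX proteins bind DNA with partners of the TALE class such as PBX and MEIS. Retinoic acid and CDX factors activate the clusters, whereas Polycomb complexes silence them. EVX1 lies beyond HOXA13 at the end of the HOXA cluster and EVX2 beyond HOXD13 at the end of the HOXD cluster. Agonist binding to the β2AR activates Gαs, which raises cAMP, and β-arrestins bind the activated receptor.

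Library totals ranged from 17908597 to 25019834 counts. GNAS, which encodes Gαs, had between 1173 and 1365 normalized counts in the 6 Gαs KO libraries and between 20419 and 33553 in the other 12. ARRB2 was lower in β-arrestin1/2 KO cells than in wildtype (log2 -2.25, adjusted p = 2.6e-08), whereas ARRB1 was at log2 -0.27 (adjusted p = 0.14). All 7 HEK293 markers reached a mean of 1 TPM (a transcript level per length that sums to the same total in every library) in the wildtype line and the β-arrestin1/2 KO line, and 6 did in the Gαs KO line, and none of the lists of blood, fibroblast, endothelial and hepatocyte markers summed to more than 7.57 TPM in any library. The first wildtype basal library stood apart, with a count-weighted mean GC content of 52.49% against 49.15 to 50.1% in the others. The responses of EVX1 and HOXA5, their neighbours and paralogs, the basal counts of calls and the calls that its removal ended or added are given with and without it, and values for which nothing is said of it include it.

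The members that carried the response to isoproterenol are EVX1 on chromosome 7 (GRCh38, chr7:27242700-27250493, plus strand, ENSG00000106038) and HOXA5 in the middle of the same cluster (chr7:27141052-27143668, minus strand, ENSG00000106004). The 180 bases that encode the homeodomain of HOXA5, the DNA-binding part of the protein, are shown in lower case. They lie in exon 2 of 2 of the coding transcript, at chr7:27141886-27142065 on the minus strand.
HOXA5 homeobox: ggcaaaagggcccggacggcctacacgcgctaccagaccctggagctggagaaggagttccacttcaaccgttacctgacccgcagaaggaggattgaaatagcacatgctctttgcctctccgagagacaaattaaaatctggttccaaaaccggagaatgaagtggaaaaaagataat
Over the whole transcripts HOXA5 shared no stretch of 31 bases with its paralogs HOXB5 or HOXC5. It shared 2 such stretches each with HOXA6 and HOXA7 and 4 with HOXB8. Stretches were counted from every start position, so neighbouring ones overlap and a longer match holds several.

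The homeobox is also shown for EVX1 (exons 2 to 3, chr7:27245167-27245927, plus strand) and EVX2 (exons 2 to 3, chr2:176080797-176082315, minus strand), with the intron left out. Capitals mark the 24 positions that differ.
EVX1 homeobox: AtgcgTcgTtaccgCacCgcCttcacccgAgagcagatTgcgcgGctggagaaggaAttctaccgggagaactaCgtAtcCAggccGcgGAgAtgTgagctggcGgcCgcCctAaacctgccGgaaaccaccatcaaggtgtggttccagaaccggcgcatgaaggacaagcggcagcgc
EVX2 homeobox: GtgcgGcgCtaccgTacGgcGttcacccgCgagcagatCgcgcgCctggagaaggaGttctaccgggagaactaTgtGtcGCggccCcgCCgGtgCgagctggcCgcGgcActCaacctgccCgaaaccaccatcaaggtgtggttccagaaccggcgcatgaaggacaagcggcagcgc
The pair was alike at 156 positions (86.7%), and 36 stretches of 31 bases, counted as above, occurred in transcripts of both genes. The paper reports paired reads longer than such a stretch, and whether any read could belong to either gene was not tested.

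RefSeq promoter windows (GRCh38.p14) that run from 250 bases before to 50 bases after each start site were searched for the core of the cAMP response element. The RefSeq start of EVX1 lies 102 bases inside the GENCODE gene, so part of its window is exonic there. TGACG, read on both strands, was in the windows of 10 of the 22 members in the promoter table, EVX1 and EVX2 included, and in 24.6% of all 35116 promoters. The full palindrome TGACGTCA, which contains TGACG, was in 0 of the 22 and in 1.85% of all promoters. HOXA5 was not among the 22. Matches were counted per gene for the members but per promoter for the percentages, and a gene may have several promoters. The member counts and the percentages are thus in unlike units, and an excess among members was not tested. These matches describe letters in a window and show no binding.

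Isoproterenol raised 2 members, EVX1 and HOXA5, in wildtype cells and the same 2 in β-arrestin1/2 KO cells, and no member passed the test in Gαs KO cells. Both genes lie in the HOXA cluster. A member was called at an adjusted p under 0.05 in edgeR's quasi-likelihood test, adjusted over all 15519 genes. The 2 of 39 members in wildtype compare with 0.464% of all genes called (0.412% higher), and the 2 of 39 in β-arrestin1/2 KO cells with 1.13% (0.954% higher).

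EVX1, a repressor active in early mesoderm and in spinal interneurons, was close to silent without agonist. Its wildtype basal libraries held 9, 7 and 4 counts, and the wildtype isoproterenol libraries held 47, 40 and 61. The β-arrestin1/2 KO libraries held 9, 14 and 3 counts under basal conditions and 145, 85 and 109 with isoproterenol. All isoproterenol libraries of these lines lay above all of their basal libraries. In Gαs KO cells EVX1 had 1, 9 and 10 counts under basal conditions and 2, 4 and 1 with isoproterenol, so that these groups overlapped and none of the 6 libraries exceeded 10 counts. Of the 2955 bases of its main transcript, 532 lie opposite exons of EVX1-AS, which was not analysed here, so part of these reads may not be separable by strand.

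The rise was 7.04-fold in wildtype (log2 2.81, SE 0.52, adjusted p = 0.014) and 14-fold in β-arrestin1/2 KO cells (log2 3.80, SE 0.51, adjusted p = 0.00035). Per length, EVX1 went from 0.318 ± 0.133 TPM to 1.87 ± 0.234 in wildtype and from 0.333 ± 0.197 TPM to 4.67 ± 1.30 in β-arrestin1/2 KO cells (SD, n = 3). The wildtype call depended on single libraries. It was lost without the third basal library (log2 2.57, adjusted p = 0.062) and without the third isoproterenol library (log2 2.64, adjusted p = 0.064), and it held without the first basal library (log2 3.05, adjusted p = 0.013). Fitted on the 6 wildtype libraries alone, EVX1 had an adjusted p of 0.15 and HOXA5 one of 0.35, so that no member was called in wildtype.

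The response of EVX1 in Gαs KO cells was log2 -1.28 (SE 0.69, adjusted p = 1). The difference from the wildtype response was log2 -4.09 (SE 0.855), and it did not pass the test (unadjusted p = 0.0002, adjusted p = 0.092). In 16 of 20 alternatives it did not pass either, with an adjusted p of up to 0.47. The 4 in which it passed were those without the first wildtype basal library (log2 -4.33, adjusted p = 0.044), without the first Gαs KO basal library (log2 -4.58, adjusted p = 0.0095), with offsets for GC content and length (adjusted p = 0.031) and in DESeq2 (adjusted p = 0.0013). The response in β-arrestin1/2 KO cells minus that in wildtype was log2 0.99 (SE 0.72, adjusted p = 1).

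HOXA5, which patterns the lung and the neck region of the skeleton, was already expressed and changed by less. Normalized counts were 266, 352 and 323 in the wildtype basal libraries and 581, 623 and 535 with isoproterenol. They were 381, 373 and 413 in β-arrestin1/2 KO basal libraries and 674, 669 and 654 with isoproterenol. In both lines every isoproterenol library exceeded every basal library. Gαs KO libraries had 230, 240 and 293 under basal conditions and 296, 240 and 296 with isoproterenol, and these groups overlapped.

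HOXA5 rose 1.85-fold in wildtype (log2 0.89, SE 0.12, adjusted p = 0.00099) and 1.71-fold in β-arrestin1/2 KO cells (log2 0.78, SE 0.12, adjusted p = 0.0018). Without the first wildtype basal library the wildtype value was log2 0.78 (adjusted p = 0.00084). The Gαs KO value was log2 0.12 (SE 0.12, adjusted p = 1). The responses of β-arrestin1/2 KO and wildtype cells differed by log2 -0.11 (SE 0.17, adjusted p = 1). Those of Gαs KO and wildtype cells differed by log2 -0.76 (SE 0.17, unadjusted p = 0.00044), which did not pass in edgeR (adjusted p = 0.17) and passed in DESeq2 (adjusted p = 0.01). Without the first wildtype basal library this difference was log2 -0.66 (adjusted p = 0.092).

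**Figure D1:**
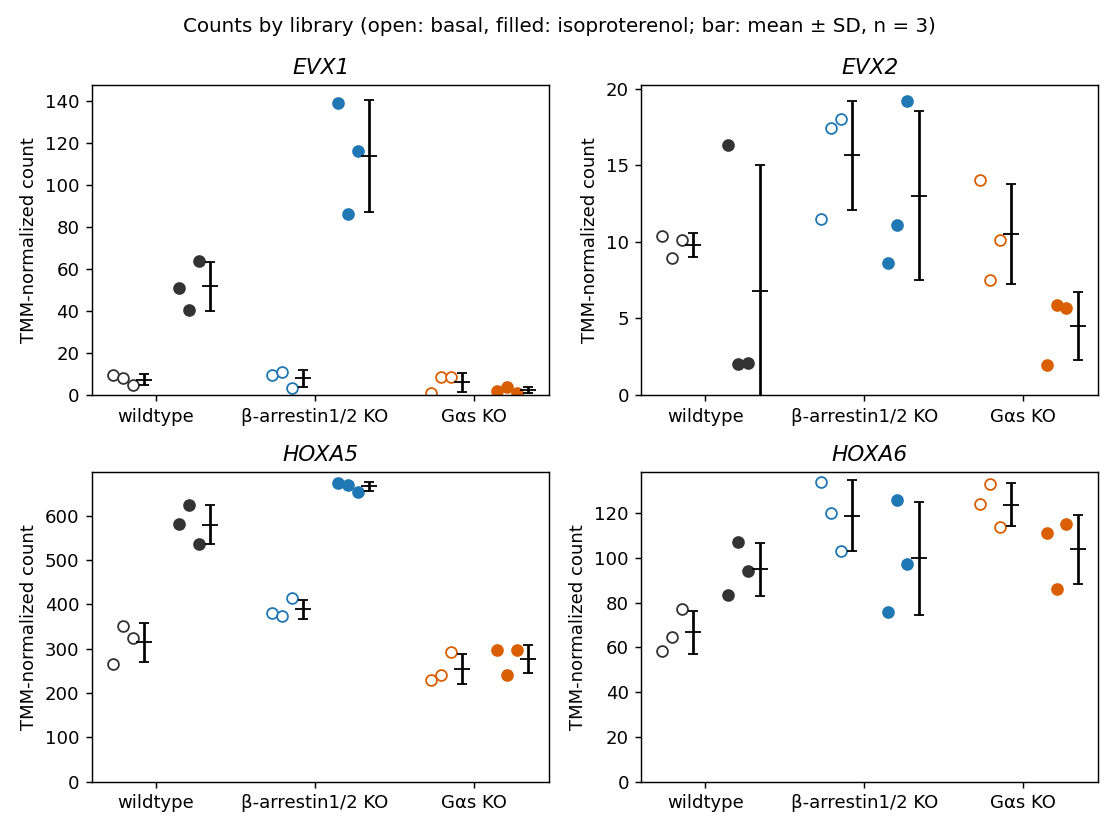
TMM-normalized counts of EVX1, EVX2, HOXA5 and HOXA6 (y axes, from 0) in each of the 18 libraries by line (x axes); open points are basal libraries, filled points isoproterenol libraries, and bars the mean ± SD of 3 libraries. The isoproterenol libraries of EVX1 and HOXA5 lie above the basal ones in the wildtype line and the β-arrestin1/2 KO line, and the Gαs KO groups of these 2 genes overlap. The SD bar of EVX2 in wildtype with isoproterenol is cut at 0.

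The paralogs of the 2 responders gave other values. EVX2 had 10, 8 and 9 counts in wildtype basal libraries and 15, 2 and 2 with isoproterenol, which overlap. Its response was log2 -0.54 in wildtype (adjusted p = 0.71), -0.28 in β-arrestin1/2 KO cells (adjusted p = 0.92) and -1.21 in Gαs KO cells (adjusted p = 1). HOXB5 was at log2 -0.02 in wildtype (SE 0.37, adjusted p = 0.98) and 0.34 in β-arrestin1/2 KO cells (SE 0.39, adjusted p = 0.86). HOXC5 was at log2 -0.01 (SE 0.26, adjusted p = 0.99) and 0.06 (SE 0.26, adjusted p = 0.96). HOXB5 and HOXC5 were thus measured with larger standard errors than HOXA5.

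The neighbours of HOXA5 on the chromosome, HOXA4 and HOXA6, did not pass the test. HOXA4 had a response of log2 0.07 in wildtype (SE 0.15, adjusted p = 0.83). HOXA6 had 58.3, 64.7 and 77.2 normalized counts in wildtype basal libraries and 83.6, 107 and 94.0 with isoproterenol, groups that do not overlap, at log2 0.51 (SE 0.20, adjusted p = 0.42). The HOXA6 groups overlapped in β-arrestin1/2 KO cells, at log2 -0.25 (SE 0.20, adjusted p = 0.79). HOXA13, the nearest HOX gene to EVX1, had a response of log2 0.29 in wildtype (adjusted p = 0.53) and 0.10 in β-arrestin1/2 KO cells (adjusted p = 0.90). Without the first wildtype basal library the wildtype responses were log2 -0.49 for EVX2, 0.05 for HOXB5, 0.31 for HOXC5, 0.08 for HOXA4, 0.42 for HOXA6 and 0.05 for HOXA13, and none of them was called.

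The other 37 tested members ranged from log2 -0.58 (HOXD1) to 0.51 (HOXA6) in wildtype. The median over the 39 members was log2 0.033 in wildtype, -0.035 in β-arrestin1/2 KO cells and -0.008 in Gαs KO cells, beside -0.002, -0.008 and -0.001 over all genes. At an unadjusted p under 0.05 there were 6 members in wildtype, 5 in the β-arrestin1/2 KO line and 1 in Gαs KO cells. The share of all genes at that unadjusted threshold was not computed, here or for the counts below, so none of these counts shows an excess. At the adjusted threshold 0% of all genes were called in Gαs KO cells. DESeq2 called 0 members in Gαs KO cells. In wildtype the isoproterenol libraries lay wholly above the basal ones for 6 members (HOXA5, HOXA6, EVX1, HOXB4, HOXB7 and HOXB9) and for 4.85% of all genes. In β-arrestin1/2 KO cells this held for HOXA3, HOXA5 and EVX1 (15.4% of all genes), and HOXA4, HOXB8 and HOXD4 lay wholly below (14.4%). In Gαs KO cells HOXA11 and HOXB7 lay wholly above (4.9%), and HOXA7 and EVX2 wholly below (5.58%).

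No member was called for a difference in response. For β-arrestin1/2 KO minus wildtype the count was 0 of 39 in edgeR and in DESeq2, beside 0.168% of all genes called in edgeR. At an unadjusted p under 0.05 there were 2 members. For Gαs KO minus wildtype the count called was 0 in edgeR, beside 0.161% of all genes called in edgeR, and 2 (EVX1 and HOXA5) in DESeq2. The share of all genes that DESeq2 called was not computed for any comparison, so none of its counts shows an excess. At an unadjusted p under 0.05 there were 3. For scale, the cAMP-responsive genes PCK1, NR4A2 and FOS rose by log2 3.23, 3.52 and 3.25 in wildtype and by 4.92, 4.68 and 3.56 in β-arrestin1/2 KO cells. In Gαs KO cells their values were 0.02, 0.10 and 0.50 (adjusted p = 1 for each).

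**Figure D2:**
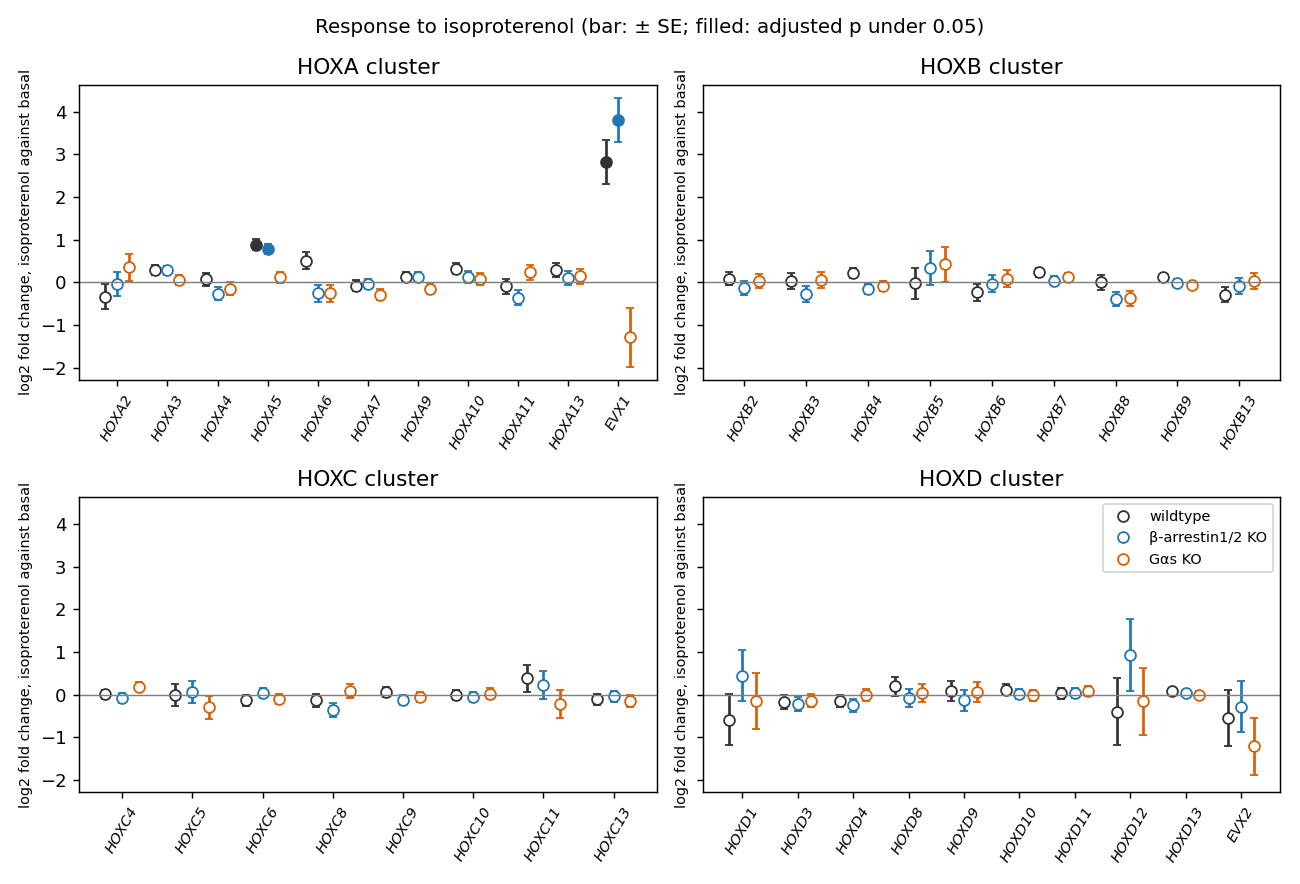
Log2 fold change of isoproterenol against basal (y axis) for 38 of the 39 tested members by cluster and position (x axes) in wildtype (dark grey), β-arrestin1/2 KO (blue) and Gαs KO (orange) cells; bars are ± 1 SE and filled points have an adjusted p under 0.05. The only filled points are EVX1 and HOXA5 in the wildtype line and the β-arrestin1/2 KO line.

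Without agonist, wildtype HEK293 cells expressed members of all 4 clusters. Levels are given in TPM, computed from the counts and the annotated transcript lengths, as mean ± SD of 3 libraries. The members together made up 541 ± 33.6 TPM in wildtype, 576 ± 7.21 in β-arrestin1/2 KO cells and 456 ± 2.62 in Gαs KO cells. In wildtype 36 members reached 1 TPM and 19 reached 10 TPM. The median over all 41 members, the untested ones included, was 9.77 TPM. Over all genes tested, which excludes genes that failed the count filter, it was 16.5 TPM. Since these are bulk samples, fewer cells of a type and less RNA per cell cannot be told apart.

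HOXB9, a posterior gene active in the thorax, had the highest wildtype level, at 53.7, 55.7 and 64 TPM. HOXD13, which patterns digits and the genital tract, followed with 32.5, 43.6 and 43.4 TPM. HOXA9, known from blood progenitors, had 26.2, 30 and 33.7 TPM and led the HOXA cluster. HOXC4 led the HOXC cluster with 24.2, 31.7 and 30.8 TPM. HOXB9 lay above the other 3 in every wildtype library, and the range of HOXA9 overlapped those of HOXD13 and HOXC4.

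The 16 members of paralog groups 9 to 13 made up 51.4% ± 0.706 of the summed wildtype level (SD, n = 3). The 15 members of groups 4 to 8 made up 36.8% ± 1.94, and the 8 members of groups 1 to 3 made up 11.7% ± 2.37. These shares and those of the clusters are sums that were not divided by the number of genes. EVX1 and EVX2 together made up 0.0998% ± 0.0287. The 5 members under 1 TPM in wildtype were EVX1, EVX2, HOXB1, HOXC12 and HOXD12. The HOXB cluster held the largest share of the 4 (29.7%, 10 members), before HOXC (25.3%, 9 members), HOXA (22.9%, 12 members with EVX1) and HOXD (22.1%, 10 members with EVX2). With the longest transcript's length per gene HOXA held 18.1%, less than HOXD at 23.4%. Among the knockouts, the basal HOXA share was 30.9% beside 25.1% for HOXB (β-arrestin1/2 KO) and 26.8% beside 25.7% (Gαs KO). This order depended on the setting. The longest transcript's length put HOXB first, at 27.2% beside 26.3% for HOXA (β-arrestin1/2 KO) and 27.6% beside 22.3% (Gαs KO). Leaving out transcripts that share exonic bases kept HOXA ahead in the β-arrestin1/2 KO line (29.4% beside 26.7%). In the Gαs KO line that setting put HOXB ahead (27.4% beside 23.9%).

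**Figure D3:**
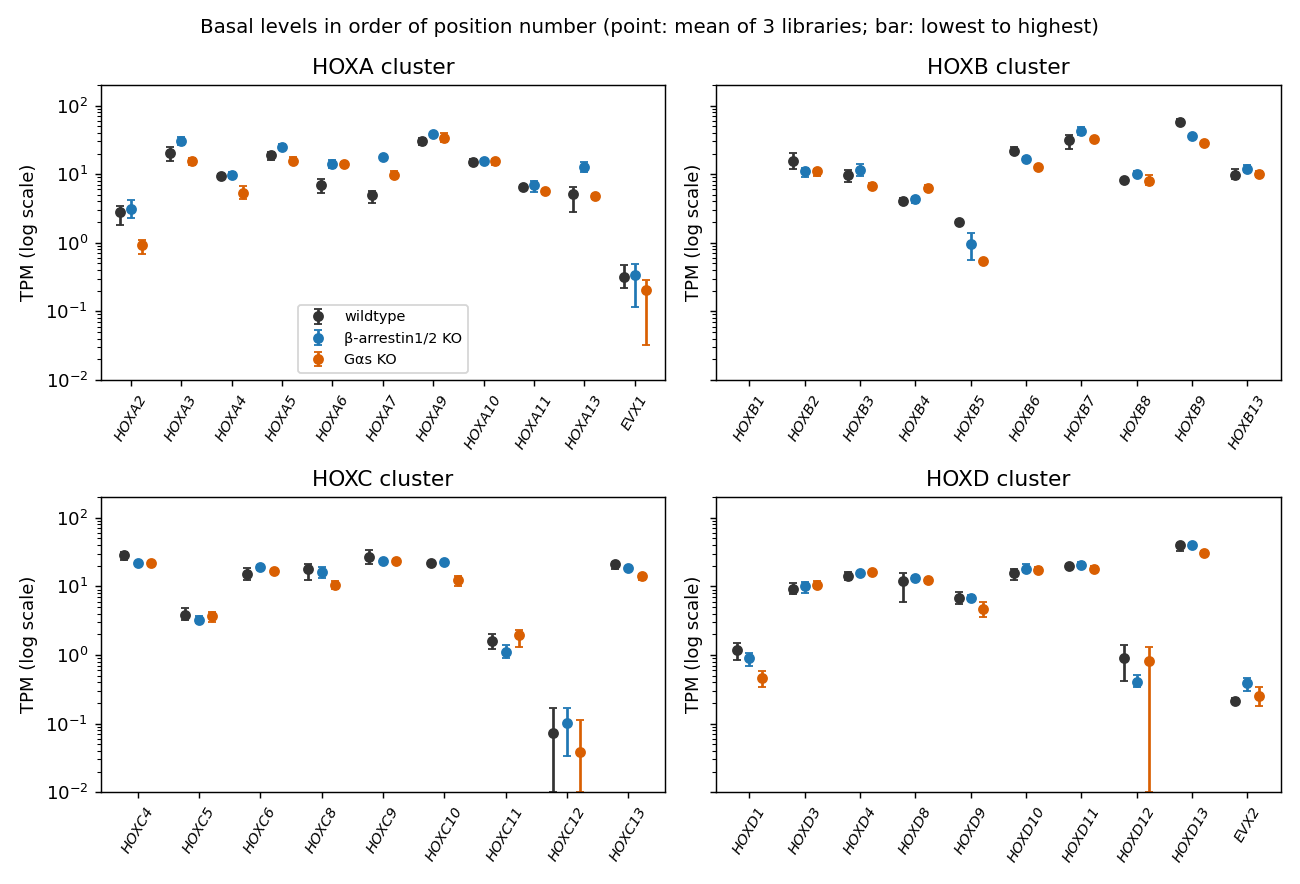
Basal TPM (log scale, y axes) of 40 of the 41 members by cluster in order of position (x axes); points are means of 3 libraries of wildtype (dark grey), β-arrestin1/2 KO (blue) and Gαs KO (orange) cells and bars run from the lowest to the highest library. HOXB9 in wildtype is the highest point, at 57.8 TPM, HOXB1 has no point because it had 0 counts, and bars of HOXC12 and HOXD12 that meet the lower edge reach 0.

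The knockout lines were next compared with wildtype under basal conditions. In β-arrestin1/2 KO cells 12 of 39 members were called (30.8%, beside 33.6% of all genes), 5 of them higher (15.7% of all genes) and 7 lower (17.9%). In Gαs KO cells 19 of 39 were called (48.7%, beside 31.3% of all genes), 3 of them higher (14.2% of all genes) and 16 lower (17.1%). The median over the members was log2 -0.1 in β-arrestin1/2 KO cells and -0.279 in Gαs KO cells, beside 0.023 and 0.007 over all genes. Both comparisons share the wildtype basal libraries, so their values are set side by side only. Without the first wildtype basal library 11 members were called in β-arrestin1/2 KO cells, 9 of them among the 12, and 20 in Gαs KO cells, 17 of them among the 19. The share of all genes called was not computed for this fit or for other alternative fits. The 33.6% and 31.3% belong to the main fit only. The 5 calls lost were those of HOXB6, HOXB7 and HOXC13 in β-arrestin1/2 KO cells and of HOXA3 and HOXD9 in Gαs KO cells. The 5 calls gained were those of HOXC8 (log2 -0.47, adjusted p = 0.015) and HOXD13 (log2 -0.20, adjusted p = 0.031) in β-arrestin1/2 KO cells and of HOXA5 (log2 -0.41, adjusted p = 0.0069), HOXA13 (log2 -0.46, adjusted p = 0.0017) and HOXD3 (log2 0.40, adjusted p = 0.046) in Gαs KO cells. Fits on the compared groups alone lost 18 calls against wildtype. In the β-arrestin1/2 KO line these were HOXA3, HOXA6, HOXA13, HOXB2, HOXB5, HOXB6, HOXB7, HOXC9 and HOXC13 (adjusted p between 0.065 and 0.28), which left HOXA7, HOXB9 and HOXC4. In the Gαs KO line they were HOXA3, HOXA4, HOXB2, HOXB3, HOXB4, HOXC9, HOXC13, HOXD9 and HOXD13 (adjusted p between 0.054 and 0.26).

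By cluster, β-arrestin1/2 KO cells had 4 HOXA members higher and none lower, 1 HOXB member higher and 4 lower, and 3 HOXC members lower. HOXD had 0 of 10 called in edgeR and in DESeq2 and 0 at an unadjusted p under 0.05, and 1, HOXD13, was called in edgeR without the first wildtype basal library. Gαs KO cells had 2 HOXA members higher and 4 lower, 1 HOXB member higher and 5 lower, 5 HOXC members lower and 2 HOXD members lower. By position, 5 of the 7 tested members of paralog groups 1 to 3 were lower in Gαs KO cells (median log2 -0.757). Of groups 4 to 8, 3 were higher and 5 lower of 15 (median -0.01), and of groups 9 to 13, 6 of 15 were lower (median -0.279). EVX1 and EVX2 were not called in any basal comparison.

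In the HOXA cluster HOXA2, which patterns the branchial arches, was lower in Gαs KO cells. It had 39.6, 63.6 and 58.2 normalized counts in wildtype, 38.8, 76.0 and 47.6 in β-arrestin1/2 KO libraries and 12.1, 19.7 and 18.4 in Gαs KO libraries. Every Gαs KO library lay below every other basal library, and the other 2 lines overlapped. Against wildtype the Gαs KO difference was log2 -1.67 (SE 0.30, adjusted p = 0.00053). In β-arrestin1/2 KO cells HOXA2 was at log2 0.02 (adjusted p = 0.97).

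HOXA7, a central gene, was higher in both knockouts. Its normalized counts were 93.7, 97.0 and 112 in wildtype, 341, 339 and 309 in β-arrestin1/2 KO libraries and 171, 202 and 187 in Gαs KO libraries, with no overlap between any 2 lines. The differences from wildtype were log2 1.71 (SE 0.13, adjusted p = 7.6e-08), or 3.26-fold, and log2 0.89 (SE 0.13, adjusted p = 6.7e-05). Of the 2018 bases of the HOXA7 coding transcript, 1507 lie opposite exons of HOXA-AS3, which was not analysed here. Whether the libraries mark strand is not given in the sources used here, so reads of HOXA7 and of HOXA-AS3 may not be separable.

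HOXA13, which patterns limb ends and the hindgut, had 173, 294 and 335 normalized counts in wildtype, 448, 497 and 519 in β-arrestin1/2 KO libraries and 213, 244 and 229 in Gαs KO libraries. It was higher in β-arrestin1/2 KO cells (log2 0.87, SE 0.17, adjusted p = 0.00088) and at log2 -0.22 in Gαs KO cells (adjusted p = 0.35), whose libraries lay inside the wildtype range. The Gαs KO value was called without the first wildtype basal library (log2 -0.46, adjusted p = 0.0017). The β-arrestin1/2 KO value was log2 0.64 (adjusted p = 8e-05) without the first wildtype basal library, and it was not called in the fit on both groups alone (log2 0.87, adjusted p = 0.071). HOXA6 was higher in both knockouts (log2 0.83 and 0.89, adjusted p = 0.0042 and 0.0027), and its β-arrestin1/2 KO call was lost in that fit as well (adjusted p = 0.065). Exons of HOXA-AS3 lie opposite 209 of the 989 bases of the coding HOXA6 transcript and 488 of the 814 of the other. Part of the HOXA6 reads may thus not be separable by strand. HOXA6 also shares 16 stretches of 31 bases with HOXA7, and whether any read could belong to either gene was not tested. HOXA5, which isoproterenol raised, was at log2 0.31 in β-arrestin1/2 KO cells (adjusted p = 0.062) and -0.30 in Gαs KO cells (adjusted p = 0.074).

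In the HOXB cluster HOXB9 and HOXB5 were lower in both knockouts. HOXB9 had 1694, 1445 and 1680 normalized counts in wildtype, 893, 839 and 866 in β-arrestin1/2 KO libraries and 704, 735 and 740 in Gαs KO libraries. The 3 lines did not overlap, and the differences from wildtype were log2 -0.89 (SE 0.09, adjusted p = 9.1e-07) and log2 -1.15 (SE 0.09, adjusted p = 6.1e-08). HOXB5, a gut and vascular regulator, had 49.0, 44.6 and 40.3 in wildtype, 10.5, 18.2 and 26.4 in β-arrestin1/2 KO and 11.2, 11.2 and 10.1 in Gαs KO libraries. Both knockouts lay below wildtype, at log2 -1.28 (SE 0.38, adjusted p = 0.017) and -2.03 (SE 0.40, adjusted p = 0.001). The first of these calls was lost without the first β-arrestin1/2 KO library (adjusted p = 0.081) or the second (adjusted p = 0.054).

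HOXB3 and HOXB4 went opposite ways in Gαs KO cells. HOXB3 had 266, 153 and 241 normalized counts in wildtype, 248, 224 and 193 in β-arrestin1/2 KO libraries and 126, 115 and 148 in Gαs KO libraries, and was lower in Gαs KO cells (log2 -0.76, SE 0.19, adjusted p = 0.0055). HOXB4, known for expanding blood progenitors, had 170, 151 and 172, then 131, 162 and 165, and then 210, 228 and 260, and was higher there (log2 0.50, SE 0.12, adjusted p = 0.004). Their Gαs KO libraries lay outside the range of the other 2 lines in each case. Neither was called in the fit on wildtype and Gαs KO basal libraries alone (log2 -0.75, adjusted p = 0.098, and log2 0.51, adjusted p = 0.09). HOXB3 transcripts share 78 stretches of 31 bases, counted as above, with HOXB4 and 404 with HOXB6, so some of their reads could belong to either gene. HOXB3 had 3327 counts in the 18 libraries. Its transcript that shares 121 exonic bases with HOXB4 held 58.3 of them, and the one that shares 433 with HOXB6 held 12.7.

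In the HOXC cluster every called difference from wildtype was a lower level. HOXC4 had 493, 520 and 508 normalized counts in wildtype, 317, 317 and 346 in β-arrestin1/2 KO libraries and 323, 352 and 361 in Gαs KO libraries. Both knockouts lay below wildtype and overlapped each other, at log2 -0.63 (SE 0.11, adjusted p = 0.00038) and -0.55 (SE 0.11, adjusted p = 0.0012). HOXC4 transcripts share 454 stretches of 31 bases, counted as above, with those of HOXC6, which was at log2 0.15 (adjusted p = 0.38) and 0.02 (adjusted p = 0.92). The HOXC4 transcript that shares 484 exonic bases with HOXC6 held 655.7 of the 7098 HOXC4 counts in the 18 libraries.

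HOXC9, a posterior gene of the trunk, had 386, 390 and 528 normalized counts in wildtype, 338, 328 and 325 in β-arrestin1/2 KO libraries and 335, 359 and 342 in Gαs KO libraries. All knockout libraries lay below the wildtype ones, with differences of log2 -0.40 (SE 0.12, adjusted p = 0.017) and -0.33 (SE 0.12, adjusted p = 0.043). Without the third wildtype basal library, the highest, neither was called (log2 -0.23, adjusted p = 0.11, and log2 -0.17, adjusted p = 0.24), and neither was with offsets for GC content and length (log2 -0.30, adjusted p = 0.1, and log2 -0.23, adjusted p = 0.21). The β-arrestin1/2 KO call was also lost without the second (adjusted p = 0.056) or the third (adjusted p = 0.057) library of that line, and the Gαs KO call without any 1 of that line's libraries (adjusted p between 0.072 and 0.12).

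HOXC10 and HOXC8 were lower in Gαs KO cells. HOXC10, which acts in the lumbar region, had 426, 333 and 361 normalized counts in wildtype, 284, 308 and 347 in β-arrestin1/2 KO libraries and 172, 210 and 224 in Gαs KO libraries (log2 -0.89 for Gαs KO against wildtype, SE 0.12, adjusted p = 5.2e-05). HOXC8, which acts in the thorax, had 287, 388 and 407, then 273, 349 and 234, and then 187, 172 and 224 (log2 -0.89, SE 0.16, adjusted p = 0.00053). For both genes the Gαs KO libraries lay below all others. Without transcripts that share exonic bases with another gene, the HOXC10 difference was log2 -1.41 (adjusted p = 0.019). That setting left out the main HOXC10 transcript, with 4438.6 of the gene's 5259 counts in the 18 libraries. The value therefore rests on minor transcripts with 292.8, 247.8 and 206.6 counts. In β-arrestin1/2 KO cells HOXC10 was at log2 -0.26 (adjusted p = 0.12) and HOXC8 at -0.34 (adjusted p = 0.12).

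In the HOXD cluster only HOXD13 and HOXD9 were called, both in Gαs KO cells. HOXD13 had 890, 982 and 988 normalized counts in wildtype, 803, 849 and 908 in β-arrestin1/2 KO libraries and 725, 692 and 646 in Gαs KO libraries, with the Gαs KO libraries below all others (log2 -0.47, SE 0.08, adjusted p = 0.00035). HOXD9, expressed in limb and trunk, had 191, 117 and 105 in wildtype, 109, 114 and 132 in β-arrestin1/2 KO and 107, 66.5 and 85.4 in Gαs KO libraries. The wildtype and Gαs KO ranges of HOXD9 overlapped, and its call (log2 -0.67, SE 0.24, adjusted p = 0.041) was lost without the first wildtype basal library (log2 -0.36, adjusted p = 0.19) and without the second (log2 -0.52, adjusted p = 0.17) or the third Gαs KO library (log2 -0.66, adjusted p = 0.10).

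Other members were called as well. In β-arrestin1/2 KO cells HOXA3 (log2 0.46) and HOXB7 (0.30) were higher, and HOXB2 (-0.75), HOXB6 (-0.61) and HOXC13 (-0.38) were lower. In Gαs KO cells HOXB6 (log2 -0.98), HOXA4 (-0.80), HOXC13 (-0.70), HOXB2 (-0.68) and HOXA3 (-0.31) were lower. Leaving out the first wildtype basal library ended the β-arrestin1/2 KO calls of HOXB6 (log2 -0.39, adjusted p = 0.087), HOXB7 (log2 0.23, adjusted p = 0.075) and HOXC13 (log2 -0.23, adjusted p = 0.12), which was also lost without the third wildtype basal library (adjusted p = 0.080), and the Gαs KO call of HOXA3 (log2 -0.23, adjusted p = 0.11), which was also lost with offsets for GC content and length (log2 -0.20, adjusted p = 0.1). These 4 calls were also lost without 1 or more of the knockout libraries (adjusted p between 0.055 and 0.20).

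**Figure D4:**
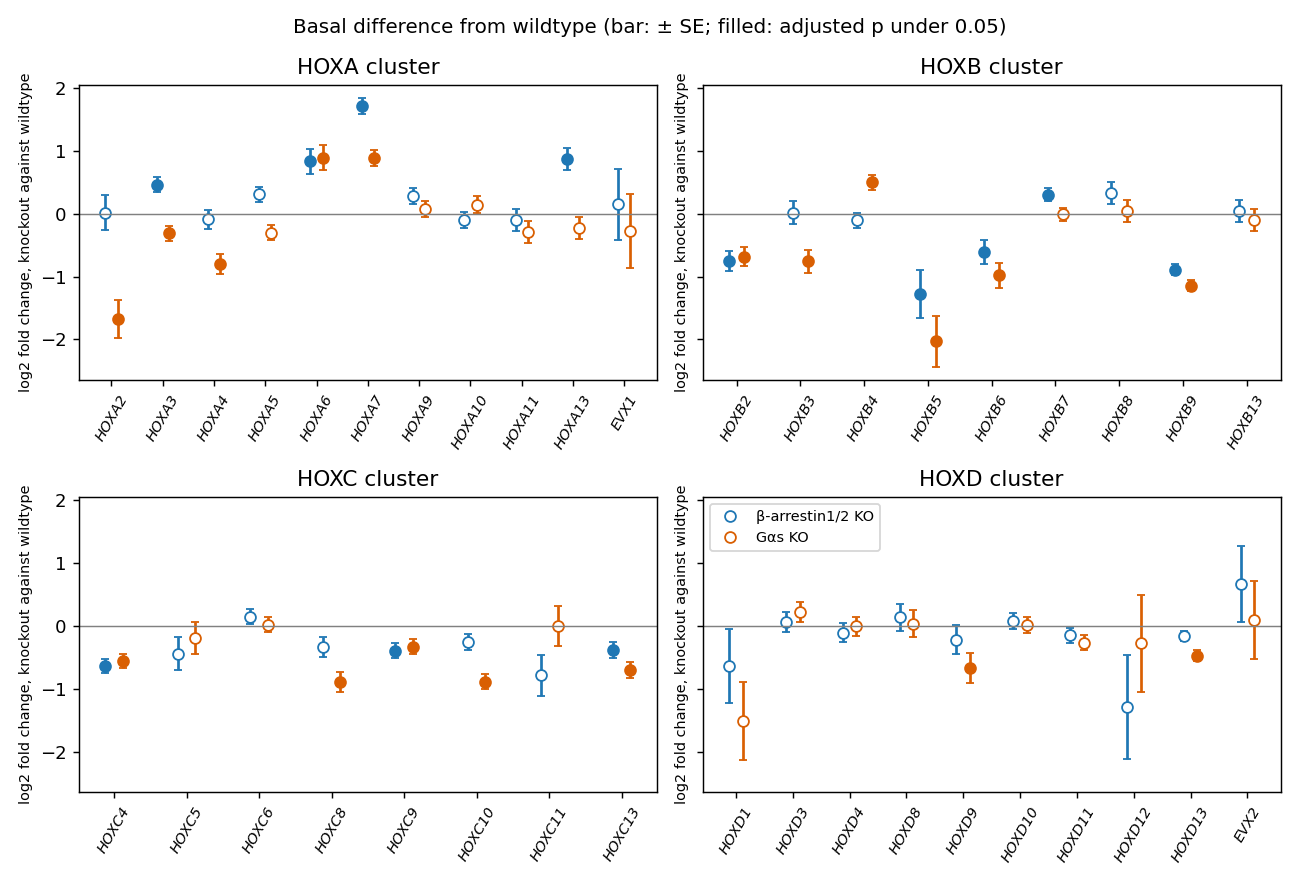
Basal log2 fold change against wildtype (y axes) of 38 of the 39 tested members by cluster and position (x axes) in β-arrestin1/2 KO (blue) and Gαs KO (orange) cells; bars are ± 1 SE and filled points have an adjusted p under 0.05. HOXB5 and HOXA2 reach the lowest filled values drawn in Gαs KO cells (log2 -2.03 and -1.67), and HOXA7 the highest in β-arrestin1/2 KO cells (1.71).

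The knockout lines were also compared with each other under basal conditions, a comparison without wildtype libraries. Of 39 members 14 were called (35.9%, beside 26.2% of all genes), 13 of them higher in β-arrestin1/2 KO cells (13.8% of all genes) and 1 lower (12.4%), with a median of log2 0.29 beside -0.004 over all genes. HOXA had 7 of 12 higher, including HOXA2 (log2 1.69, SE 0.30, adjusted p = 0.00051), HOXA13 (log2 1.09, adjusted p = 0.00014) and HOXA5 (log2 0.61, adjusted p = 0.0013). In HOXB, HOXB3 was higher (log2 0.77, adjusted p = 0.0055) and HOXB4 lower (log2 -0.60, adjusted p = 0.0011). HOXB7 (log2 0.31) and HOXB9 (log2 0.25) were also called higher. Each of these 2 calls was lost in 7 of 14 alternatives, with an adjusted p of up to 0.21 for HOXB7 and 0.11 for HOXB9. HOXC10 (log2 0.63, adjusted p = 0.0012), HOXC8 (log2 0.56, adjusted p = 0.018) and HOXD13 (log2 0.31, adjusted p = 0.0093) were higher. Without transcripts that share exonic bases HOXC10 was at log2 1.56 (adjusted p = 0.012), a value that leaves out its main transcript and rests on minor ones. The call of HOXC8 was lost without the second β-arrestin1/2 KO library (log2 0.39, adjusted p = 0.11) and without the first or second Gαs KO library (adjusted p = 0.058 and 0.078), and that of HOXD13 without the third Gαs KO library (log2 0.27, adjusted p = 0.05).

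Genes that act with or upon the HOX clusters were read in the same tests. Their counts at an unadjusted p under 0.05 and their counts in DESeq2 have no share of all genes beside them. Their basal counts are to be set beside the shares of all genes called, 33.6% in β-arrestin1/2 KO cells (15.7% higher, 17.9% lower) and 31.3% in Gαs KO cells (14.2% higher, 17.1% lower), and their medians beside log2 0.023 and 0.007. None of the 11 TALE cofactors tested was called for a response in any line (0 at an unadjusted p under 0.05 in edgeR, 0 in DESeq2). Under basal conditions 6 were higher and 1 lower in β-arrestin1/2 KO cells, with MEIS3 at log2 2.09 and PKNOX2 at -1.19, and 3 were higher and 2 lower in Gαs KO cells, with PKNOX2 at -1.87 and MEIS3 at 1.19. These were 63.6% and 45.5% of the 11, and the medians of the list were log2 0.314 and 0.119.

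Of 17 genes of retinoic acid handling and upstream activation, 11 were tested, and 9 (81.8%, beside 17.1% of all genes lower) were lower in Gαs KO cells with none higher (median log2 -0.961, beside 0.007 over all genes). They included ALDH1A2 (log2 -2.07), which makes retinoic acid, and CYP26A1 (log2 -1.47), which degrades it and is itself induced by it. The β-arrestin1/2 KO line had 3 higher and 3 lower (54.5%, median log2 -0.035), the largest being RARB (log2 -1.15) and RARA (log2 -0.91), both retinoic acid receptors. Between the knockouts 6 were higher in β-arrestin1/2 KO cells (54.5%, beside 13.8% of all genes, median log2 1.187 beside -0.004), with CYP26A1 at log2 2.07 and ALDH1A2 at 1.93. For the responses 0 of 11 were called in any line by edgeR or DESeq2, with 1 at an unadjusted p under 0.05 in wildtype, 1 in the β-arrestin1/2 KO line and 0 in Gαs KO cells.

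Of the 28 Polycomb genes 26 were tested, and none was called for a response by edgeR or DESeq2, with 4 at an unadjusted p under 0.05 in wildtype, 2 in the β-arrestin1/2 KO line and 0 in Gαs KO cells. Under basal conditions 4 were higher and 3 lower in β-arrestin1/2 KO cells, among them the PRC2 subunit EED (log2 1.56) and CBX6 (log2 -0.97). The Gαs KO line had 8 higher and 1 lower, with EED at log2 1.07 and CBX7 at 0.74. The shares called were thus 26.9% and 34.6%, below and near those of all genes, and the medians were log2 0.013 and 0.125. Of the 14 trithorax and related genes, which counter Polycomb, 2 were higher and 4 lower in β-arrestin1/2 KO cells (KMT2D log2 -0.93, KDM6B log2 -0.74), and 3 were higher and 2 lower in Gαs KO cells (KDM6B log2 -0.73, KMT2D log2 -0.58), which is 42.9% and 35.7% of the list. None was called for a response by either tool, with 4 at an unadjusted p under 0.05 in β-arrestin1/2 KO cells and 0 in each of the other lines.

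Of 17 ParaHox and other homeobox genes, which include the CDX genes counted above, 13 were tested. MSX2, a BMP-induced repressor, rose with isoproterenol in wildtype (log2 0.69, adjusted p = 0.0036) from 406, 483 and 444 normalized counts to 722, 765 and 657, with no overlap. MSX2 rose in β-arrestin1/2 KO cells from 1039, 1171 and 1200 to 1713, 1784 and 2051 (log2 0.70, adjusted p = 0.0012), and EN2, an engrailed gene of the midbrain and hindbrain, rose as well (log2 0.46, adjusted p = 0.014). At an unadjusted p under 0.05 there were 6 of the 13 in wildtype and 5 in the β-arrestin1/2 KO line, and DESeq2 called EN2 and MSX2 in the first and EN2, GBX2 and MSX2 in the second. For the difference in response between Gαs KO and wildtype cells edgeR called 0 of the 13, with 7 at an unadjusted p under 0.05, and DESeq2 called MSX2. None of the 13 was called in Gαs KO cells (1 at an unadjusted p under 0.05, 0 in DESeq2). Under basal conditions 3 (23.1%) were higher in β-arrestin1/2 KO cells, including MSX2 (log2 1.35) and CDX2 (log2 0.74), and 10 (76.9%) were lower in Gαs KO cells (median log2 -0.548), including DLX2 (log2 -0.88) and EN1 (log2 -0.85).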

How the data were processed

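Poly(A) RNA of 18 libraries was sequenced on a Novaseq instrument. The authors deposited estimated counts per transcript for each library, made with Salmon (version 1.7.0 per the submitters' processing notes) on GRCh38. The transcript index is not given in the sources used here. The authors tested with DESeq2, and 0 columns of values went unused.

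Transcripts were joined to GENCODE 29 by identifier (161798 of 184844 matched, holding 92.9 to 93.7% of counts), summed to 34255 genes and rounded. Genes that passed filterByExpr were tested with edgeR 4.0.16 (R 4.3.3): TMM scaling, quasi-likelihood test, all 6 groups in 1 fit, Benjamini-Hochberg adjustment over 15519 genes, calls at an adjusted p under 0.05. The study's methods name DESeq2 without giving the fit, so DESeq2 1.42.0 was an alternative. The script was tested on simulated data. Normalized counts are TMM-scaled, and TPM was computed from annotated lengths with pandas 2.3.3. Intervals and errors cover the spread between libraries. Replicate numbers are labelled as biological replicates, and whether they pair libraries is not given in the sources used here. Deviations of same-numbered libraries from their group means correlated between -0.0993 and 0.0766, which does not settle whether they were prepared together.

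Members and lists were chosen with earlier results of these data known. Values in every library are given for EVX1, HOXA5, members called in a response or a difference in response, the member of each cluster with the highest wildtype basal TPM, and in each cluster the 2 called members with the largest basal difference per comparison. HOXA4, HOXA6, HOXA13, EVX2, HOXB5 and HOXC5 were added in the responses as neighbours or paralogs. In lists, the called genes with the 2 largest differences per comparison are named. Alternatives were size-factor scaling, DESeq2, no count filter, fits on the compared groups alone, a replicate block, GC and length offsets, unshared transcripts, a threshold of 0.01, other lengths for TPM and each library left out. Of the 115 member transcripts, 24 share exonic bases on the same strand with another gene. Other genes inside the clusters were not analysed here. Some items are not reported here, among them the single values of 1 member, which stays in the counts and medians.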

Additional observations from a re-analysis of the deposited data

How the results depend on the processing

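The 45 called basal differences of single members were recomputed 626 times in all. The call held in 550, was lost with the same direction in 76 and turned direction in 0, and 23 of the 45 were never lost. Fits on the compared groups alone lost the most calls of a single alternative, 18. They left 0 members called for the response in wildtype, 3 for β-arrestin1/2 KO against wildtype and 10 for Gαs KO against wildtype under basal conditions. The cause was not tested. The share of all genes called was not computed for any alternative, so losses among members cannot be told from losses over all genes. A threshold of 0.01 left 1 member for the wildtype response and 7 for β-arrestin1/2 KO against wildtype. For the difference in response between Gαs KO and wildtype cells, offsets for GC content and length gave 1 member and DESeq2 gave 2. With 1 library left out, the counts were 1 to 2 for the wildtype response, 0 to 1 for the Gαs KO difference in response, 8 to 13 for β-arrestin1/2 KO and 16 to 20 for Gαs KO against wildtype under basal conditions, and 11 to 13 between the knockouts. A replicate block was also fitted, although the sources used here do not say that the libraries are paired. With it 2 members were called for the response in wildtype, 2 for that in β-arrestin1/2 KO cells and 0 for that in Gαs KO cells. For the 3 basal comparisons it gave 11, 18 and 13. The shares of the summed wildtype TPM moved with the longest transcript's length to 18.1% for HOXA, 31.6% for HOXB, 26.9% for HOXC and 23.4% for HOXD, and without shared transcripts to 21.0% for HOXA. Low counts limit EVX1, EVX2, HOXD1 and HOXD12 most.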
